A study of Mus musculus with 2 samples.

Results

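The 9 genes described here encode the signalling machinery of the T cell receptor. They comprise the 4 chains of the CD3 complex (Cd3e, Cd3d, Cd3g and Cd247), the kinases Lck, Fyn and Zap70, and the adaptors Lat and Lcp2. They were picked by symbol, with no measured value in the rule, and are 9 of the 28692 genes listed, of which 18298 had at least 1 unique molecular identifier (UMI, 1 captured transcript molecule) in a clustered cell. The mice were C57BL/6 of wt genotype and received either chow (the control) or a ketogenic diet, which is very low in carbohydrate and raises ketone bodies in blood, in both cases for 1 week. CD45+ leukocytes resident in adipose tissue were profiled, intravenous labelling having served to tell them from cells in the blood. Each diet is represented by 1 single-cell RNA sequencing library. The tissue was visceral adipose tissue according to the series title. Both sample titles call the mice adult, and their number, exact age and sex are not given in the sources used here.

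The chow library held 4545 cells and 21570910 UMIs, and the ketogenic library 5614 cells and 26041785 UMIs. The deposited clustering placed 4458 and 5559 of them in 13 clusters, with medians of 3550 and 3467 UMIs per clustered cell. The 2 libraries shared 41 cell barcodes, 3 of them in the same cluster. Clusters are named by marker genes that exclude the 9 members. They are ILC2-like (group 2 innate lymphoid, cluster 0), NK-like (natural killer, 1), T-like (CD4 and CD8 T cell markers together, 2), macrophage-like (3), cDC2-like and cDC1-like (conventional dendritic, 5 and 6), Treg-like (regulatory T, 7), B and plasma-like (9), cycling-like (10), γδ T-like (11) and mature DC-like (12). Clusters 4 and 8 stay unnamed. Cluster 4 raised only 3 of 7 CD4 T, 3 of 7 CD8 T and 3 of 9 NK markers, and its 10 leading genes mixed Ly49 receptors such as Klra1 and Klra7 with Cd3d, Cd3g and Cd3e. The T-like clusters 2, 7 and 11 together with cluster 4 held 9.66% of the chow and 26.4% of the ketogenic UMIs.

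The T cell receptor binds antigen through an αβ or γδ chain pair that cannot signal by itself. It is assembled with CD3γε, CD3δε and a ζ dimer (from Cd247), whose tyrosine motifs are phosphorylated by the Src-family kinases Lck and Fyn. ZAP-70 then docks on the motifs and phosphorylates LAT and SLP-76 (from Lcp2), the scaffolds on which downstream enzymes gather. The ζ chain also serves activating receptors of NK cells, so it is not confined to T cells, whereas the γ, δ and ε chains at the cell surface mark T cells.

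Levels are given in CPM, the UMIs of a gene per 1000000 UMIs summed over a cluster of 1 library. Square brackets hold 95% intervals (exact Poisson for a level, exact binomial for a share, exact conditional for a ratio), which cover counting error only. With 1 library per diet no difference between diets has a replicate check and no test was made. UMI levels of different genes were not compared with each other, since capture and length differ, only each gene across clusters. Since the clustering used the members too (Cd3e, Cd3d and Cd3g are among the 10 leading genes of clusters 2 and 4), their levels by cluster are a description.

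Cd3g, Cd3d and Cd3e lie side by side, and their promoters are shown because their transcripts were high in the same clusters. Cd3g (minus strand, chr9:44969572-44980431) and Cd3d (plus strand, chr9:44981786-44987339) are transcribed away from each other from start sites 1355 bases apart, and Cd3e (minus strand, chr9:44998740-45009627) follows 11400 bases on (GRCm38, GENCODE M21). Cd247, the fourth chain, lies on another chromosome (plus strand, chr1:165788681-165877277). The promoter windows below run 5′ to 3′ from 250 bases before to 50 after the RefSeq start site on GRCm38.p6. Capitals mark matches, on either strand, to 6-base core letters of RUNX, ETS, E-box, TCF and GATA factors, spelled out after the sequences. No match overlaps another in these windows.
Cd3g, chr9:44980382-44980681, minus strand: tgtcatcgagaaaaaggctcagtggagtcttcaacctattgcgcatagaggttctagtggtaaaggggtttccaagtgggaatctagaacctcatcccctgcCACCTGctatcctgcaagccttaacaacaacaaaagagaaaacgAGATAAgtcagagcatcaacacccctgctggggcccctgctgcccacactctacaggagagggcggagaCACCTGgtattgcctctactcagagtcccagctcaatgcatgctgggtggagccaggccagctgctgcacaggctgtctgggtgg
Cd3d, chr9:44981536-44981835, plus strand: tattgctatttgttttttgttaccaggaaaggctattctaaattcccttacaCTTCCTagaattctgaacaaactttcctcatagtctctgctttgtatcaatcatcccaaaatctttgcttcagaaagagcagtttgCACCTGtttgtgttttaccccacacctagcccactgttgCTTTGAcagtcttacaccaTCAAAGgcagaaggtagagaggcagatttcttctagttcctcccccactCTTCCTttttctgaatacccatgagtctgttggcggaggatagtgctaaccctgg
Cd3e, chr9:45009562-45009861, minus strand: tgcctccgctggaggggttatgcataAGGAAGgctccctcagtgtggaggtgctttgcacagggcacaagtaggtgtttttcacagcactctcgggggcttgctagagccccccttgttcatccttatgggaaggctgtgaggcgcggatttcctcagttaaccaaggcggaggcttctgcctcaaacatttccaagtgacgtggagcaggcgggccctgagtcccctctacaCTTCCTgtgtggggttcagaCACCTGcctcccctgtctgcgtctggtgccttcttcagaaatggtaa

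The E-box letters searched were CAGGTG. They were present in all 3 CD3 windows and in 20.2% of the 32851 windows of all genes. For ETS factors the search used AGGAAG, found in the Cd3d and Cd3e windows and in 35.4% of all windows. TCF letters, written CTTTGA, occurred in the Cd3d window alone among these 3 and in 16% of all windows. GATA letters, written AGATAA, occurred in the Cd3g window alone among these 3 and in 11.2% of all windows. RUNX factors were represented by TGTGGT, absent from these 3 windows and present in 16.8% of all windows. A match is a run of letters and says nothing of a bound factor.

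Lck is shown as well, since it differed most between T cell clusters. The gene is known to be transcribed from a proximal and a distal promoter, and RefSeq gives 2 start sites for it (minus strand, chr4:129548344-129573641). The counts are summed over the gene and cannot tell which of them was in use. The window further downstream held 1 ETS and 1 E-box match, and the upstream one 3 ETS matches, 1 RUNX match and 1 E-box match.
Lck downstream window, chr4:129558323-129558622, minus strand: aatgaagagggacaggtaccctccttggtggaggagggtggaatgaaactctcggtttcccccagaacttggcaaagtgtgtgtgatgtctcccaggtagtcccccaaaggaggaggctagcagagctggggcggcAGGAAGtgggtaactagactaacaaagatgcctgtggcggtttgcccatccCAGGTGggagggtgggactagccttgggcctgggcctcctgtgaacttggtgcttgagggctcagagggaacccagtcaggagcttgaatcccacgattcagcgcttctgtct
Lck upstream window, chr4:129573592-129573891, minus strand: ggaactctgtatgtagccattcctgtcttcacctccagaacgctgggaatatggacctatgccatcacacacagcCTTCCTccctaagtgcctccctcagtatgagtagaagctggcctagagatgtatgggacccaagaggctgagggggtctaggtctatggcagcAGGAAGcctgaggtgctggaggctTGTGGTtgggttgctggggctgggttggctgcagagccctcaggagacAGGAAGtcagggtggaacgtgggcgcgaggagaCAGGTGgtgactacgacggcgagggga

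Over the 12 windows of the 9 members, ETS letters were found in 9, E-box letters in 8, TCF letters in 5, RUNX letters in 3 and GATA letters in 2. The TATA box letters TATAAA, searched on both strands, occurred in 0 of the 12 and in 13.6% of all windows.

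The CD3ε, δ and γ transcripts were high in clusters 2, 4, 7 and 11 and low elsewhere, with the cycling-like cluster of the ketogenic library in between. Receptor constant genes were not confined to these 4 clusters: their 7 genes summed to 1047 and 1291 CPM (chow, then ketogenic) in ILC2-like and 940 and 1171 in NK-like cells, against 1608 and 2764 in Treg-like cells, the lowest of the 4. Cd3e, which encodes the chain that pairs with both δ and γ, stood highest in γδ T-like cells, at 627 CPM [519–750] under chow and 645 [586–708] under the ketogenic diet. T-like cells had 415 [366–469] and 562 [535–591], cluster 4 had 378 [336–425] and 480 [450–512], and Treg-like cells 291 [246–342] and 343 [313–375]. In what follows, paired values give chow first and the ketogenic diet second. NK-like cells held 18.4 [12.6–25.8] and 28.7 [23.4–34.8], and ILC2-like cells 18.1 [13.1–24.4] and 20.9 [16.8–25.6]. The order 11, 2, 4, 7 was the same in both libraries, but the intervals of clusters 2 and 4 and of 4 and 7 overlapped under chow, and those of clusters 11 and 2 under the ketogenic diet.

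Cd3d, the δ chain, had a different order. Cluster 4 (1030 CPM [959–1105] and 980 [937–1025] in that order of diets) and T-like cells (952 [877–1032] and 1016 [979–1054]) overlapped in both libraries and stood at or above γδ T-like cells (853 [727–995] and 803 [737–873]). Treg-like cells held 522 [460–589] and 556 [518–597]. Among innate cells, NK-like cells had 70.6 [58.9–84.0] and 68.4 [60.2–77.5], and ILC2-like cells 30.3 [23.7–38.1] and 25.9 [21.4–31.2]. The ratio of NK-like to ILC2-like cells was 2.33 [1.73–3.16] and 2.64 [2.10–3.33] for Cd3d. Under the ketogenic diet both lay at levels found in cells that should lack the gene: ILC2-like cells were the lowest of the 13 clusters, and NK-like cells overlapped cDC2-like (64.1 [55–74.2]) and B and plasma-like cells (70 [58.2–83.5]). Under chow the NK-like level stood above those of the antigen-presenting and B cell clusters, the highest of which was 24.9 [18.8–32.5].

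Cd3g, the γ chain, was the CD3 gene with the smallest gap between T-like and ILC2-like cells. It was highest in γδ T-like cells, at 1591 CPM [1416–1780] and 1580 [1487–1677], followed by T-like cells at 846 [775–922] and 1169 [1129–1210], cluster 4 at 823 [759–890] and 1061 [1016–1108], and Treg-like cells at 598 [532–670] and 809 [763–858]. ILC2-like cells held 133 [119–149] and 143 [132–155], and NK-like cells 91.2 [77.8–106] and 134 [122–146]. Under chow ILC2-like cells lay above NK-like cells beyond counting error, and under the ketogenic diet they did not. T-like cells exceeded ILC2-like cells in Cd3g by 6.35-fold [5.51–7.32] and 8.15-fold [7.48–8.90], against 31.5-fold [24.6–40.8] and 39.2-fold [32.5–47.7] for Cd3d.

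Cd247 followed a flatter pattern among lymphocytes. It stood at 216 CPM [155–293] and 179 [148–214] in γδ T-like, 182 [150–219] and 208 [192–226] in T-like, 116 [88.4–151] and 112 [95.6–131] in Treg-like cells and 110 [87.7–137] and 114 [99.9–131] in cluster 4. NK-like cells, at 75.1 [63.0–88.9] and 103 [92.4–114], came close, and their intervals overlapped those of clusters 4 and 7 in both libraries. ILC2-like cells held 13.5 [9.20–19.0] and 17.4 [13.7–21.8], less than NK-like cells by 5.58-fold [3.77–8.48] and 5.89-fold [4.59–7.64]. The Cd247 gene overlaps 6 other annotated genes, Pou2f1 on the opposite strand among them. Strand use in the counting is not given in the sources used here, so reads of such neighbours cannot be told apart.

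**Figure D1:**
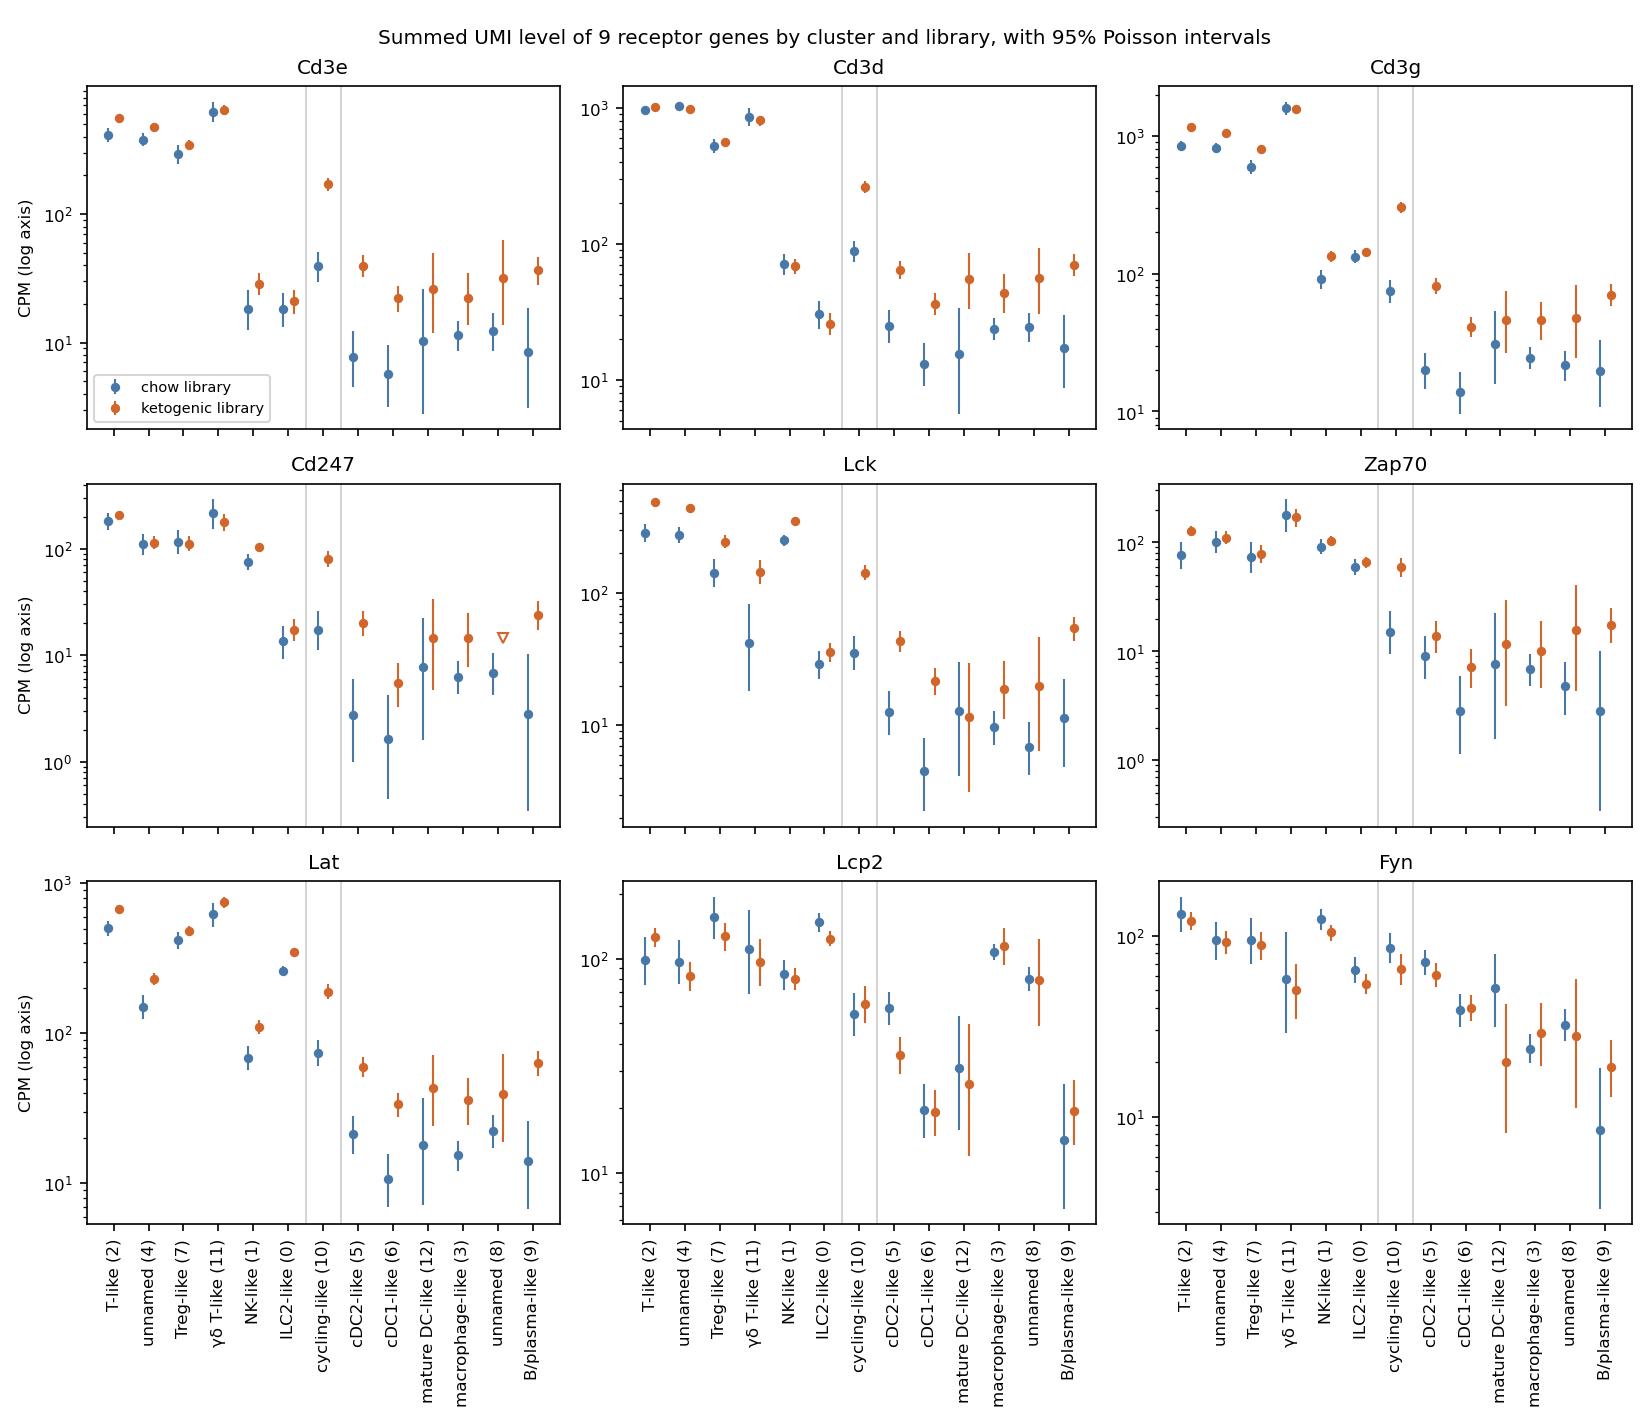
CPM of the 9 genes (log axis) in each of 13 clusters for the chow (blue) and ketogenic (orange) library, with 95% Poisson intervals. The open triangle marks the upper limit of Cd247 in cluster 8 of the ketogenic library, where no UMI was found. Cd3e, Cd3d and Cd3g separate clusters 2, 4, 7 and 11 from the rest, while Lcp2 and Fyn are spread over lymphoid and myeloid clusters.

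The make-up of the chain transcripts set the innate clusters apart. In NK-like cells Cd247 supplied 29.4% [25.3–33.8] of the UMIs of the 4 chains under chow (135 of 459) and 30.8% [28.2–33.5] under the ketogenic diet (369 of 1198). In T-like cells its share was 7.59% [6.30–9.05] and 7.05% [6.51–7.63], in γδ T-like cells 6.57% [4.76–8.81] and 5.58% [4.65–6.62], and in cluster 4 it was 4.71% [3.76–5.80] and 4.34% [3.80–4.94]. The leading genes of both clusters held Ly49 receptors, though not the same ones: Klra1, Klra7 and Klra6 in cluster 4, and Klra8, Klra4 and Klra9 in NK-like cells. In its Cd247 share cluster 4 lay far from NK-like cells.

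In ILC2-like cells Cd3g supplied 68.3% [63.9–72.5] and 69.1% [65.9–72.1] of the chain UMIs, against 35.3% [32.9–37.8] and 39.6% [38.5–40.6] in T-like and 48.4% [44.4–52.4] and 49.3% [47.2–51.4] in γδ T-like cells. Over all clustered cells the Cd3g share was 39.4% and 42.1%. The ILC2-like Cd3g share and the NK-like Cd247 share lay outside the intervals of clusters 2, 4, 7 and 11 in both libraries. The NK-like Cd3g share (35.7% and 40.1%) lay inside those of T-like cells. In cDC1-like cells the intervals of these shares held the values of the whole library. There Cd3g made up 40.5% [29.9–51.7] and 39.3% [34.3–44.6], and Cd247 4.76% [1.31–11.7] and 5.19% [3.15–7.99], beside 8.31% and 7.79% over all clustered cells. This did not hold for B and plasma-like cells of the ketogenic library, with Cd247 at 11.9% [8.71–15.7] and Cd3g at 35.1% [30.1–40.4].

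**Figure D2:**
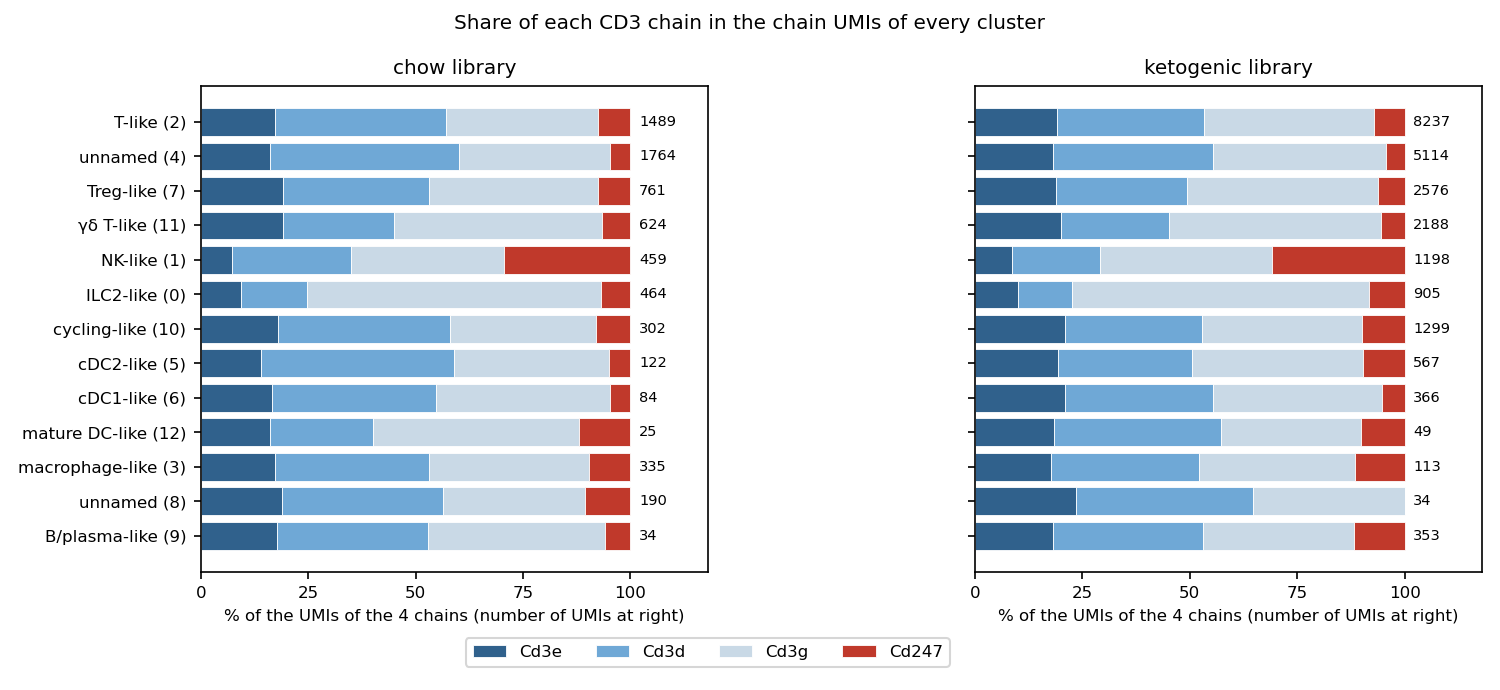
Percent of the UMIs of the 4 CD3 chains supplied by Cd3e, Cd3d, Cd3g (blues) and Cd247 (red) in every cluster, chow library at left and ketogenic library at right, with the number of chain UMIs beside each bar. The NK-like bar has the largest red part among lymphoid clusters (29.4% and 30.8%), and the ILC2-like bar the largest Cd3g part (68.3% and 69.1%).

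Lck, the kinase bound to the CD4 and CD8 coreceptors, was shared by T and NK cells. T-like cells held 285 CPM [244–330] under chow and 486 [461–513] under the ketogenic diet, cluster 4 held 275 [239–315] and 442 [413–473], and NK-like cells 251 [228–275] and 351 [332–371]. Treg-like cells stood lower, at 143 [111–180] and 245 [220–273]. ILC2-like cells had 29.0 [22.6–36.7] and 35.6 [30.2–41.6], less than NK-like cells by 8.65-fold [6.70–11.3] and 9.88-fold [8.36–11.8].

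γδ T-like cells combined the highest Cd3e and Cd3g levels with little Lck. They had 8 Lck UMIs under chow and 99 under the ketogenic diet, or 42.1 CPM [18.2–83.0] and 145 [118–177]. As a ratio to T-like cells this was 0.148 [0.0629–0.298] and 0.298 [0.241–0.366]. Fyn, the other Src-family member, was lower there as well, at 57.9 CPM [28.9–104] and 49.8 [34.5–69.6] against 132 [105–164] and 121 [108–135] in T-like cells. These were the only 2 of the 9 members at least 2-fold lower in γδ T-like than in T-like cells in both libraries, and 0 were 2-fold higher in both. Of all genes with enough UMIs, 3.1% were 2-fold lower and 3.9% 2-fold higher. Zap70, the kinase that follows, was not lower there: 179 CPM [124–250] and 170 [140–204] against 77.2 [56.9–102] and 128 [115–142].

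A further Src-family kinase, Blk, was highest in γδ T-like cells, followed by B and plasma-like cells. It had 32 and 93 UMIs in γδ T-like cells, or 169 CPM [115–238] and 136 [110–167], and 21.2 CPM [11.9–35] and 40.4 [31.6–51] in B and plasma-like cells. T-like cells had 0 and 2 UMIs, and clusters 4 and 7 had 0 in both libraries, which allows up to 7.4 CPM under chow and 2.61 under the ketogenic diet in cluster 7. Blk was among the markers that named the γδ T-like cluster, so its level there is not independent of the name.

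Splitting cluster 11 by Trdc, the constant segment of the δ receptor chain, separated the kinases. The 45 chow and 96 ketogenic cells with a Trdc UMI had 28.8 CPM of Lck [7.84–73.6] and 55.4 [33.9–85.6], beside 201 CPM of Blk [134–291] and 219 [173–273]. The 14 and 74 cells without a Trdc UMI had 78.8 CPM of Lck [21.5–202] and 246 [195–306], beside 78.8 [21.5–202] and 43.5 [23.8–73.1] of Blk. In the ketogenic library, where both sets are large enough, the intervals of Lck and of Blk were apart, in opposite directions. The cells without Trdc carried Trac, the α chain constant segment, at 512 CPM [335–750] and 634 [550–728], against 71.9 [34.5–132] and 63.8 [40.4–95.7] in those with it.

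Cluster 4 did not repeat this. Its cells with a Trdc UMI (44 and 108) had Lck above those without under chow and overlapping with them under the ketogenic diet, at 407 CPM [300–539] and 483 [419–554] against 250 [213–292] and 431 [399–465]. Blk was at 0 UMIs in both sets. Their Lat was 84.8 CPM [40.6–156] and 213 [171–262], well under that of Trdc-positive cells in cluster 11, at 712 [578–866] and 882 [787–984]. The Trdc-positive cells of these clusters thus differed in Lck, Blk and Lat in both libraries.

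**Figure D3:**
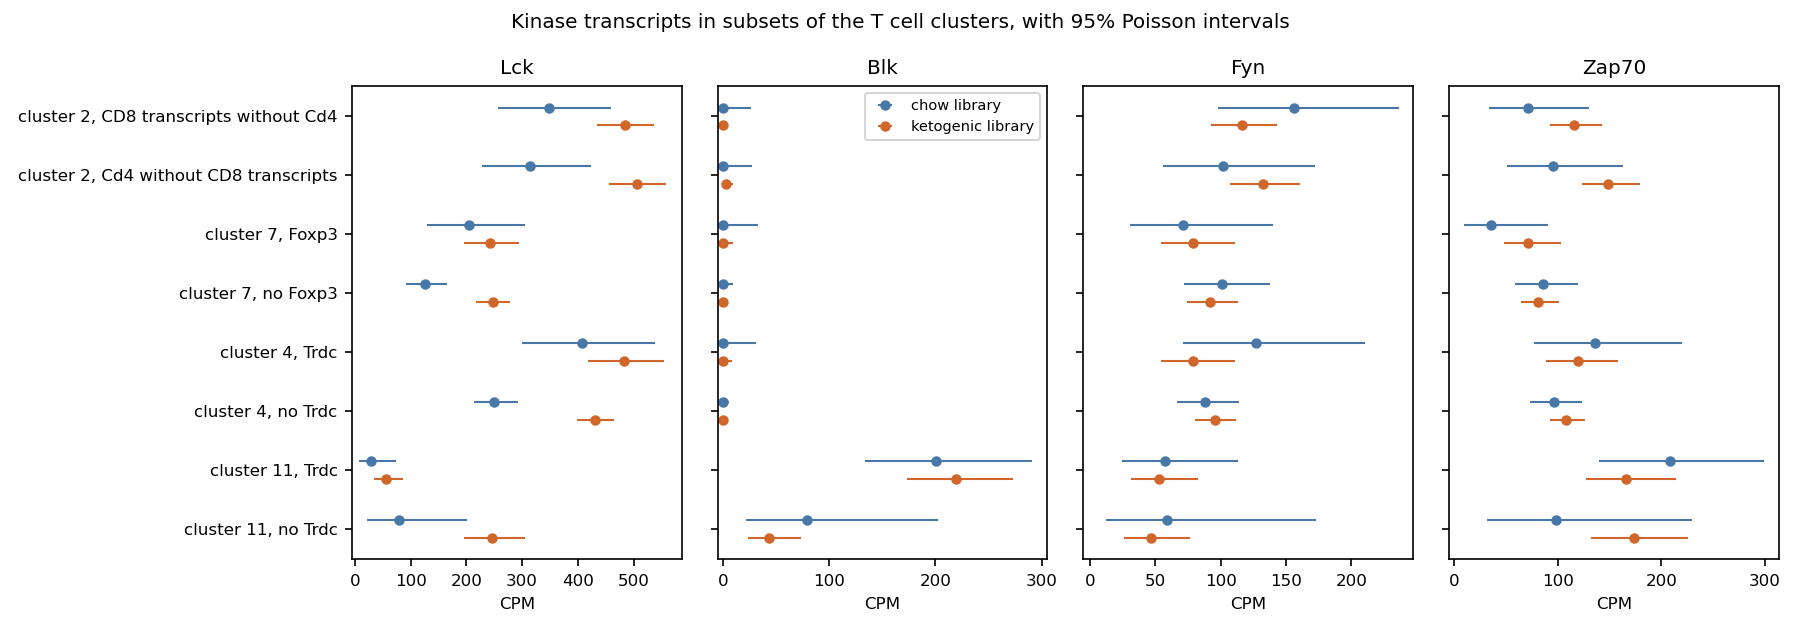
CPM of Lck, Blk, Fyn and Zap70 (linear axes, 95% Poisson intervals) in cells of clusters 2, 4, 7 and 11 split by transcripts that are not members, chow library in blue and ketogenic library in orange. Lck is lowest and Blk highest in the Trdc-positive cells of cluster 11, while Blk is at or near 0 in all subsets of clusters 2, 4 and 7.

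CD4 and CD8 T cells of cluster 2 overlapped in the kinases, Cd3e and Cd3d in both libraries, while Cd247, Lat and Lcp2 were apart in 1 of the 2. Cells with Cd4 but no CD8 transcript (56 and 212) had Lck at 315 CPM [228–424] and 506 [456–559], and cells with Cd8a or Cd8b1 but no Cd4 (46 and 206) at 348 [257–460] and 484 [435–536]. Cd247 stood at 227 [154–322] and 257 [223–296] in CD4 and at 135 [81.1–210] and 146 [120–176] in CD8 cells. Its intervals were apart in the ketogenic library and overlapped under chow. Lat also stood higher in CD4 cells of the ketogenic library, at 743 [683–807] against 611 [557–670], with overlap under chow (578 [458–721] against 440 [337–564]). For Lcp2 the intervals were apart under chow, at 168 [107–253] in CD4 and 42.6 [15.6–92.6] in CD8 cells, and overlapped under the ketogenic diet, at 143 [117–172] and 95.7 [74.9–121]. Cd3g was higher in CD4 cells in both libraries, at 864 [715–1035] against 695 [564–847] and 1221 [1144–1303] against 1067 [995–1144], with intervals that overlapped or met. Within cluster 7, cells with and without a Foxp3 UMI overlapped in all 9 members in both libraries.

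Zap70 varied less among lymphocytes than the chains did. Besides γδ T-like and T-like cells, it stood at 102 CPM [80.7–128] and 111 [96.5–127] in cluster 4, 91.8 [78.3–107] and 104 [93.8–115] in NK-like, 74.3 [52.3–102] and 78.5 [64.6–94.5] in Treg-like and 59.3 [49.9–69.9] and 65.6 [58.2–73.7] in ILC2-like cells. In both libraries 11 of the 12 steps between clusters ordered by level had overlapping intervals. ILC2-like cells, where Cd3e stood at 18.1 and 20.9 CPM, thus held Zap70 within 2-fold of T-like cells.

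Lat, the membrane scaffold phosphorylated by ZAP-70, marked ILC2-like cells among the innate lymphocytes. They had 261 CPM [241–282] and 351 [333–369], against 69 [57.4–82.2] and 110 [99.8–122] in NK-like cells, whose ratio to ILC2-like cells was 0.265 [0.216–0.321] and 0.315 [0.281–0.352]. γδ T-like cells held 621 [514–744] and 749 [685–817], T-like cells 502 [448–561] and 680 [650–711], and Treg-like cells 418 [363–478] and 481 [446–519]. Cluster 4, despite its CD3 levels, stood at 150 [124–180] and 230 [210–253], a ratio to T-like cells of 0.299 [0.239–0.372] and 0.339 [0.305–0.376]. It was the only member at least 2-fold apart between clusters 4 and 2 in both libraries, where 1.25% of all genes were 2-fold lower and 1.83% higher.

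Lcp2, which encodes SLP-76, crossed from lymphoid to myeloid cells. It stood at 157 CPM [124–195] and 127 [109–147] in Treg-like, 148 [133–164] and 124 [114–135] in ILC2-like and 108 [98.7–117] and 114 [93.1–139] in macrophage-like cells, and at 98.1 [75.1–126] and 126 [113–139] in T-like cells. Its lowest levels were in B and plasma-like cells (14.2 [6.79–26] and 19.4 [13.4–27.0]) and in cDC1-like cells (19.7 [14.5–26.1] and 19.2 [14.9–24.4]). Fyn was likewise broad, at 123 [107–140] and 104 [93.8–115] in NK-like and 71.2 [60.5–83.2] and 60.8 [52.0–70.7] in cDC2-like cells. Steps between neighbouring clusters overlapped in 11 of 12 cases for Lcp2 in each library, and in 11 and 12 of 12 for Fyn.

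Set side by side, the lymphoid clusters differed in which members they carried. T-like over NK-like cells, 5 of 9 members (Cd3e, Cd3d, Cd3g, Cd247 and Lat) were at least 2-fold higher in both libraries, against 1.59% of all genes, and 0 were lower (4.01%). T-like over ILC2-like cells, 6 were higher (Cd3e, Cd3d, Cd3g, Cd247, Lck and Fyn; 3.37%) and 0 lower (7.18%). NK-like over ILC2-like cells, Cd3d, Cd247 and Lck were higher (6.48%) and Lat lower (6.48%). Cluster 4 over NK-like cells, Cd3e, Cd3d, Cd3g and Lat were higher (0.558%) and 0 lower (1.43%). Treg-like over T-like cells, 0 of 9 passed in either direction, where 6.08% of all genes were higher and 1.31% lower.

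Over the 26 sums of cluster and library, levels on the log2(CPM + 10) scale described which genes resembled each member. These points share 2 libraries and differ in depth, so the coefficients are descriptions, and 9110 genes had at least 200 UMIs. The summed CD3ε, δ and γ levels were closest to Trac (r = 0.958), Sit1 (0.945) and Trbc2 (0.929). Lck was closest to Cd28 (0.958), Gimap4 (0.945) and Gimap7 (0.944), Zap70 to Thy1 (0.984), Saraf (0.959) and Gimap3 (0.957), and Lat to Bcl11b (0.973), Icos (0.967) and Camk4 (0.954). Cd247 was closest to Rasgrp1 (0.951), Tcf7 (0.941) and Phf6 (0.934). Lcp2 (Pdha1, 0.909, Tmem50a, 0.907, and Fam63b, 0.894) and Fyn (Asxl2, 0.884, Utrn, 0.869, and Aqr, 0.857) had lower best values. Among members, Cd3e and Cd3d were closest (0.988), and Lck and Lcp2 farthest (0.474).

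The design asks what 1 week of ketogenic diet changed in these cells. All members but Lcp2 and Fyn were much higher in the ketogenic library as a whole, where T cells took a larger share. For these members the gap was smaller at equal cell composition. Over all clustered cells the 4 chains summed to 312 CPM in the chow and 889 CPM in the ketogenic library (log2 ratio 1.51). In such a sum alone, fewer cells of a type and less RNA per cell cannot be told apart. Counted separately, T-like cells were 5.29% [4.65–5.99] of chow and 14.8% [13.8–15.7] of ketogenic clustered cells. Their median depths were 2374 and 2993 UMIs. Clusters 4, 7 and 11 were 6.03%, 3.59% and 1.32% of chow and 9.26%, 5.9% and 3.06% of ketogenic cells. With every cluster given the same weight in both libraries they summed to 676 and 831 CPM, a log2 ratio of 0.30 [0.26–0.34]. On the weighted scale Lck had the highest log2 ratio (0.69), followed by Lat (0.49), Cd3e (0.43), Cd3g (0.42), Zap70 (0.30), Cd247 (0.29) and Cd3d (0.10). Lcp2 and Fyn stood at −0.10 and −0.16, and at −0.11 and 0.29 without the weights.

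Within the 6 lymphoid clusters 0, 1, 2, 4, 7 and 11, Lck was the one kinase gene with higher CPM under the ketogenic diet past 1.5-fold in several clusters, and its CPM was higher in all 6. Its log2 ratio was 0.29 in ILC2-like (where the ratio of CPM was 1.23 [0.917–1.65]), 0.49 in NK-like, 0.68 in cluster 4, 0.77 in T-like, 0.78 in Treg-like and 1.70 in γδ T-like cells. The ratio of CPM was 1.71 [1.46–2.01] in T-like, 1.61 [1.38–1.88] in cluster 4, 1.72 [1.33–2.25] in Treg-like and 3.44 [1.68–8.20] in γδ T-like cells, all at least 1.5-fold. The background for that fold, counted over the genes that reached 50 UMIs in the sum of the libraries, was 14.3% of genes in cluster 2, 10% in cluster 4, 13.6% in cluster 7 and 12.9% in cluster 11. Not all subsets of these clusters passed. Within cluster 7 the Lck ratio was 1.19 (23 and 98 Lck UMIs) in cells with a UMI of Foxp3, the defining factor of regulatory T cells, and 1.98 [1.45–2.76] in those without. Within cluster 4 it was 1.19 [0.863–1.66] with a Trdc UMI and 1.72 [1.45–2.06] without. In cluster 2 it was 1.39 [1.03–1.92] in CD8 and 1.61 [1.17–2.26] in CD4 cells, and in cluster 11 it was 1.93 [0.646–7.76] with a Trdc UMI and 3.12 [1.17–11.7] without. The difference between subsets was not tested, and their intervals overlapped. The make-up of cluster 11 also differed: cells without a Trdc UMI were 14 of 59 under chow and 74 of 170 under the ketogenic diet, and held 4 of the 8 and 79 of the 99 Lck UMIs. Its part in the 3.44-fold ratio was not tested.

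In NK-like cells Cd3e (1.56-fold [1.05–2.39]) and Lat (1.60-fold [1.31–1.98]) were past 1.5-fold, where 7.97% of genes were. T-like cells added Zap70 (1.66-fold [1.23–2.30]) and cluster 4 added Lat (1.54-fold [1.25–1.91]). In ILC2-like cells 0 of 9 members passed (8.94% of genes). In all, 8 of the 53 pairs of member and lymphoid cluster with at least 50 UMIs were at least 1.5-fold higher and 0 lower. The background for higher was 8.94%, 7.97%, 14.3%, 10%, 13.6% and 12.9% in clusters 0, 1, 2, 4, 7 and 11. For lower it was 7.35%, 7.44%, 7.01%, 6.26%, 6.55% and 6.92% in the same order. Cluster 7 had 1 of 9 higher and cluster 11 had 1 of 8. The 8 higher pairs lay close to the share over all genes and are not read as a result about the members. Cd3e in NK-like cells rested on 33 and 103 UMIs, and its log2 ratio of 0.63 went to −0.11 when 10% of the UMIs of each cluster were subtracted at the profile of the whole library, as free RNA. After that subtraction, 5 of the 53 pairs were at least 1.5-fold higher and 2 lower. The 4 Lck values stayed past 1.5-fold under each of the 6 alternatives run on single pairs, whereas Zap70 in T-like cells (0.52 without the shallowest cells) and Lat in NK-like cells (0.51 after the subtraction) and cluster 4 (0.49 as a mean over cells) did not.

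Cd3e and Cd3g were also higher under the ketogenic diet in T-like cells, by 1.35-fold [1.19–1.55] and 1.38-fold [1.26–1.52], in cluster 4 by 1.27-fold [1.11–1.45] and 1.29-fold [1.18–1.41], without reaching 1.5-fold. This held beyond counting error in both clusters as a whole. In subsets the values spread around these: Cd3e was 1.85-fold [1.35–2.58] and Cd3g 1.54-fold [1.24–1.91] in CD8 cells of cluster 2, both past the fold, and 1.49 [1.11–2.03] and 1.41 [1.17–1.73] in CD4 cells. In cluster 4 Cd3e was 1.01-fold [0.742–1.39] in cells with a Trdc UMI and 1.33-fold [1.15–1.55] in those without. These differences between subsets were not tested. Cd3d, their neighbour on the chromosome, was not higher: its ratio was 1.07 [0.976–1.17] in T-like cells and 0.952 [0.875–1.04] in cluster 4. Outside clusters 2 and 4, Cd3g was also higher in Treg-like (1.35-fold [1.19–1.54]) and NK-like cells (1.46-fold [1.22–1.76]). In ILC2-like cells its interval included 1 (1.08 [0.938–1.24]). Below 1.5-fold, Lat was higher in T-like (1.36-fold [1.2–1.53]) and ILC2-like cells (1.35-fold [1.22–1.48]). Its Treg-like interval included 1 (1.15 [0.986–1.35]). In γδ T-like cells the ratio intervals of all 4 chains included 1, at 1.03 [0.839–1.27] for Cd3e, 0.941 [0.789–1.13] for Cd3d, 0.993 [0.874–1.13] for Cd3g and 0.828 [0.577–1.21] for Cd247.

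Fyn lay at or below 1 in all 6 lymphoid clusters (0.836 to 0.974), with only NK-like cells at the edge of counting error (0.847 [0.715–1]). Lcp2 was lower in ILC2-like cells, at 0.839 [0.732–0.962]. Several other measures moved with diet in the same clusters. The 9 macrophage markers summed to 153–210 CPM under chow and 33–71.4 under the ketogenic diet in the 6 lymphoid clusters, with at most 2 of the 9 at 0 (Fcgr1, Adgre1, C1qc or Mrc1, in clusters 4 and 11), and the median depth was 2296.5–3052 against 2993–3703 UMIs per cell. The 5 B cell markers summed to 400–527 and 419–522 CPM, with at most 3 of the 5 at 0 in a cluster. The part of the macrophage transcripts and of depth in the ratios was not tested beyond the alternatives given.

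**Figure D4:**
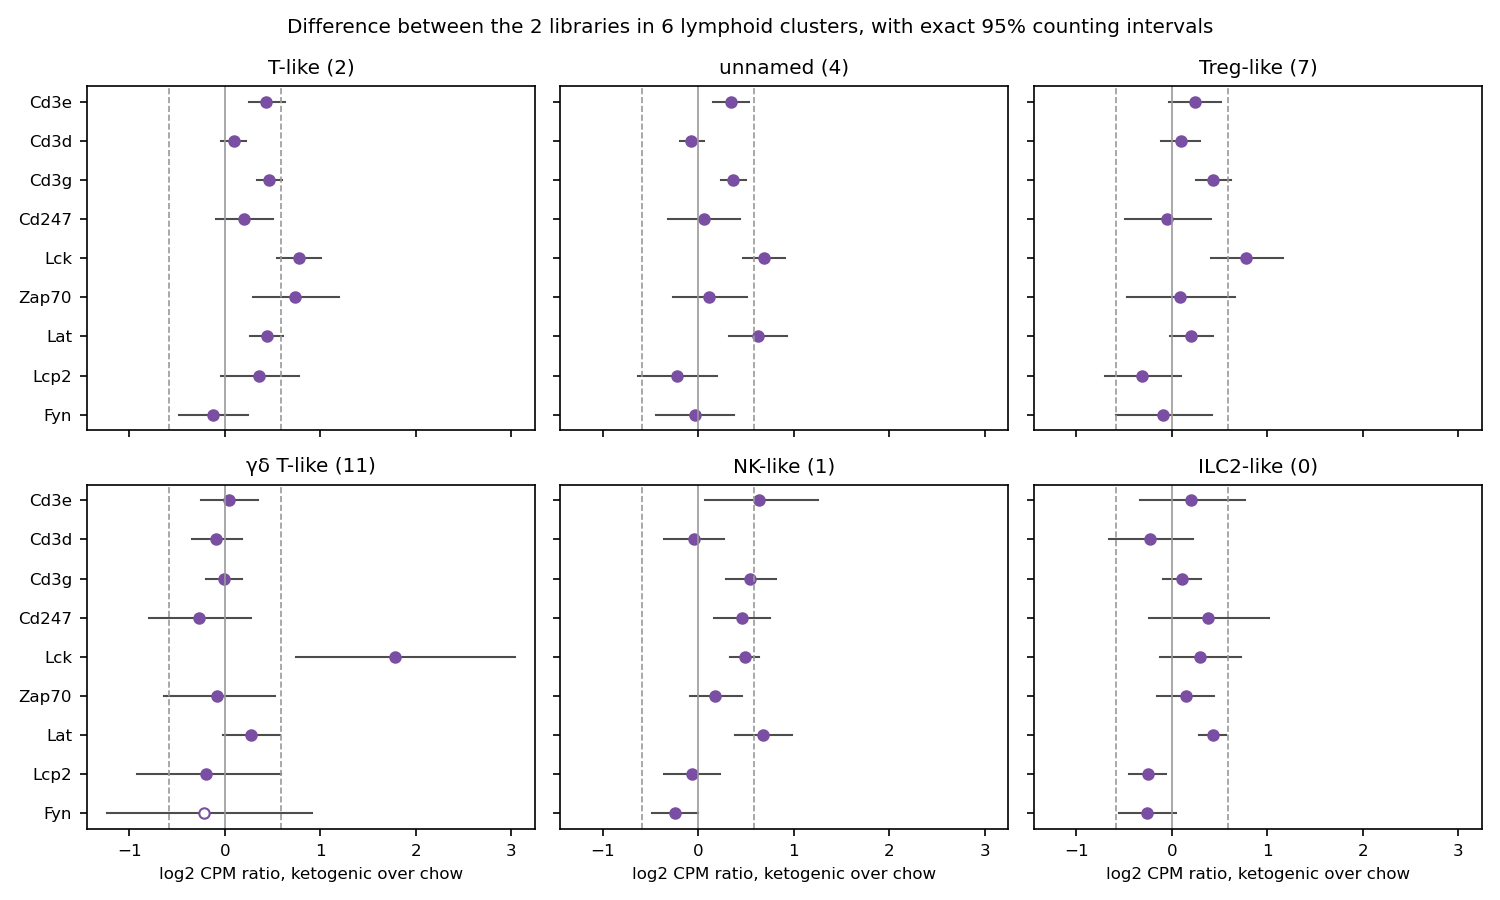
Log2 ratio of CPM, ketogenic over chow, for the 9 genes in 6 lymphoid clusters, with exact 95% counting intervals. Dashed lines mark 1.5-fold in either direction, and the open circle is a pair with fewer than 50 UMIs. Lck lies right of the upper dashed line in clusters 2, 4, 7 and 11, while Cd3d and Fyn lie near or left of 0.

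The wider pathway was read through lists of genes around the receptor. Downstream of LAT and SLP-76, 5 of 14 genes were at least 1.5-fold higher in T-like cells (14.3% of all genes) and 0 lower (7.01%). Among them were Nck1 (35.4 CPM under chow and 61 in the ketogenic library, log2 ratio 0.76, CPM ratio 1.72 [1.10–2.82]), Bcl10 (0.71), Grap2 (0.59) and Fyb (0.59), the last 3 named after their values were seen. Nck1 and Grap2 encode adaptors that bind SLP-76, and Bcl10 a protein on the route to NF-κB. Themis had the lowest ratio (−0.51) among the 14 genes of the list with at least 50 UMIs. The list median was 0.27 in T-like cells, against 0.09 over all genes. In γδ T-like cells 3 of 6 were higher (12.9% of all genes), Bcl10 (1.32), Skap1 (0.82) and Fyb (0.66, named after its value was seen). Bcl10 rested on 5 and 49 UMIs, with a CPM ratio of 2.73 [1.09–8.77]. The share of cells without Trdc differed between the libraries in this cluster, and its part in these ratios was not tested. In NK-like and ILC2-like cells 0 of 13 were past 1.5-fold in either direction, where 7.97% and 8.94% of all genes were higher.

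Of the coreceptor and costimulation list, 0 of 9 passed in T-like cells (14.3% of all genes were higher and 7.01% lower), with Cd8a highest (0.54) and Cd4 lowest (−0.12). In γδ T-like cells Cd28 (26.3 and 82.1 CPM, log2 ratio 1.52) and Cd2 (1.05) passed, 2 of 3 measured (12.9% of all genes), in the cluster whose share of cells without Trdc differed between the libraries. Of the negative regulators, T-like cells had Ubash3a (1.09) and Sla2 (0.83) higher and Pag1 (−0.68), the adaptor that tethers the Lck inhibitor Csk, lower, of 14 measured. These 2 higher and 1 lower lie at the share over all genes in that cluster (14.3% and 7.01%). In Treg-like cells Pag1 stood the other way (1.07, 8 and 50 UMIs). Of the receptor constant genes, 4 of 5 were higher in Treg-like cells (13.6% of all genes), where Trbc2 stood at 664 and 1178 CPM (1.77-fold [1.58–2]). The list did not move as one in other clusters: 3 of 6 were higher and 1 lower in T-like cells (Tcrg-C1, 0.361 [0.204–0.655]), 1 of 7 was higher in cluster 4 and in γδ T-like cells, and 0 of 6 passed in ILC2-like cells.

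Early targets of receptor signalling did not go one way. In T-like cells Tnfrsf9, which encodes the costimulatory receptor 4-1BB, was higher (12.9 and 35.9 CPM, log2 ratio 1.40), while Nr4a3 (−0.68) and Egr1 (105 and 39.5 CPM, −1.41) were lower, and the list median over 7 genes was 0.01. These are 1 higher and 2 lower of 7, beside 14.3% and 7.01% of all genes. Egr1, an immediate early transcription factor, was also lower in ILC2-like (−0.71), NK-like (−1.09), cluster 4 (−1.50) and Treg-like cells (−1.19). Egr1 was lower outside the T and innate lymphoid clusters too: its log2 ratio was −2.38 in macrophage-like, −1.85 in cycling-like, −1.51 in B and plasma-like and −0.89 in cDC1-like cells. Tnfrsf9 was higher in NK-like (0.72), cluster 4 (0.85) and Treg-like cells (1.41). Fcer1g and Tyrobp, signalling adaptors best known from innate cells, were lower in T-like cells (−0.68 and −1.17), where the macrophage markers summed to 175 and 43 CPM. The part of macrophage RNA in those 2 ratios was not tested. Cluster 4, which has receptor constant and CD3 transcripts, also held Fcer1g (1626 and 1463 CPM) and Tyrobp (1400 and 1269).

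Cells with a CD3 transcript were counted after thinning every cell to 1000 UMIs, a depth that 0 clustered cells fell short of. A UMI of Cd3e, Cd3d or Cd3g was then found in 87.7% [82.8–91.6] of chow and 92.4% [90.4–94.2] of ketogenic T-like cells, and in 89.8% [79.2–96.2] and 87.6% [81.7–92.2] of γδ T-like cells. Cluster 4 had 85.1% and 90.3%, and Treg-like cells 71.2% and 78.7%. The shares in ILC2-like cells were 12.6% [10.5–15.1] and 13.7% [11.9–15.7], and in NK-like cells 9.81% [7.74–12.2] and 11.9% [9.98–14.0]. cDC1-like cells, which should lack CD3, had 2.93% [1.35–5.49] and 7.61% [5.07–10.9], at median depths of 7906 and 9922 UMIs before thinning, against 2610.5 and 3133 in ILC2-like and 2296.5 and 3147 in NK-like cells. The cDC1-like share was the lowest of all clusters in both libraries. Under the ketogenic diet cDC2-like cells had 10.3% [7.38–14], B and plasma-like 9.39% [6.04–13.8] and macrophage-like cells 8.28% [4.35–14]. These intervals overlapped those of NK-like and ILC2-like cells. Under chow the same clusters had 4.94% [2.9–7.79], 4.88% [1.34–12] and 4.66% [3.35–6.29]. Of these only B and plasma-like cells overlapped ILC2-like cells. Unthinned, the shares were 98.3% and 100% in T-like, 24.4% and 28.5% in ILC2-like, 16.6% and 25.1% in NK-like and 19.2% and 36.6% in cDC1-like cells.

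The CD3 UMIs of innate cells were unevenly spread. Among ILC2-like cells with any, 48 of 208 chow and 106 of 374 ketogenic cells had 3 or more, and among NK-like cells 39 of 120 and 77 of 267. In ILC2-like cells the thinned share for Cd3g alone was 10.1% [8.13–12.3] and 10.5% [8.92–12.3], against 1.30% and 3.38% in cDC1-like cells, while Cd3e was at 1.29% and 1.91%, against 0.651% and 1.69%. Unthinned, Cd3g was in 19.1% and 21.2% of ILC2-like and 9.77% and 20% of cDC1-like cells, and Cd3e in 3.51% and 5.27% against 3.91% and 11.8%. Read against that background, Cd3g transcripts in ILC2-like cells exceeded the level in cDC1-like cells, while the thinned shares of Cd3e overlapped. By level, Cd3e was higher in ILC2-like than in cDC1-like cells under chow (18.1 CPM [13.1–24.4] against 5.74 [3.14–9.63]) and overlapped under the ketogenic diet (20.9 [16.8–25.6] against 22.1 [17.4–27.6]). The cDC1-like level was the lowest of the 13 clusters under chow. The chow intervals of clusters 3 (11.4 [8.67–14.8]), 8 (12.4 [8.66–17.1]), 9 and 12 overlapped that of ILC2-like cells, which were themselves the lowest of the 13 under the ketogenic diet. Lat was present in 22.5% [19.7–25.4] and 29.7% [27.2–32.3] of thinned ILC2-like cells and in 0.977% and 2.82% of cDC1-like cells, and Lck was present in 22.8% [19.8–26] and 29.9% [27.2–32.8] of NK-like cells against 0.326% and 1.97%. The unthinned shares were 49.1% and 67.8% for Lat in ILC2-like and 44.9% and 66.7% for Lck in NK-like cells.

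In the antigen-presenting and B cell clusters (3, 5, 6, 8, 9 and 12), the T cell members were low. The summed chains were higher in the ketogenic library, by a ratio that varied: 1.92 [1.54–2.38] in cluster 3, 2.07 [1.39–2.99] in cluster 8, 2.21 [1.34–3.73] in cluster 12, 3.05 [2.40–3.92] in cluster 6, 3.71 [3.05–4.55] in cluster 5 and 4.17 [2.93–6.12] in cluster 9, against 2.85 [2.78–2.93] over all clustered cells. Cd3e, Cd3d, Cd3g, Lck, Zap70 and Lat stood at 6.47% to 32.1% of their CPM over all clustered cells of the same library, in 6 clusters and both libraries. In cDC1-like cells Cd3e was at 5.74 CPM [3.14–9.63] under chow and 22.1 [17.4–27.6] under the ketogenic diet, which is 11.4% and 13.7% of the library level, and Cd3g at 11.3% and 11%. Cd247 spanned 6.33% to 34.5%, apart from cluster 8 of the ketogenic library, where 0 UMIs were found.

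Counted against the fold, 24 of 33 pairs with at least 50 UMIs were at least 1.5-fold higher under the ketogenic diet in these clusters. The count was 5 of 7 in cluster 3 (11.7% of all genes), 6 of 9 in cluster 5 (8.67%), 5 of 7 in cluster 6 (9.13%), 3 of 5 in cluster 8 (9.32%) and 5 of 5 in cluster 9, where 42.6% of all genes passed and the median log2 ratio of all genes was 0.50. In cluster 12 no member reached 50 UMIs (10.8% of genes passed). Trac and Trbc2, which these cells should lack, had log2 ratios of 2.02 and 1.80 in cDC1-like cells, beside 1.90 for Cd3e and 1.55 for Cd3g. In cluster 9 they stood at 3.67 and 2.98, above Cd3d (1.99) and Cd3g (1.79).

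Part of the CD3 UMIs sat in few cells. Cells with 3 or more CD3 UMIs made up 3 of 307 chow and 30 of 355 ketogenic cDC1-like cells, and 9 of 344 and 46 of 358 cDC2-like cells. These cells held 66% and 83.8% of the CD3 UMIs of the 2 clusters in the ketogenic library but 21.2% and 31.9% in the chow library, where most were in cells with 1 or 2. When cells with at least 2 UMIs of receptor constant genes, Nkg7 or Gata3 were left out, a step that used receptor transcripts found together with CD3 in T cells, 16 of the 25 calls in these clusters remained, and the count was 15 higher and 4 lower. The direction turned for 4 pairs that had been higher: Cd3e (log2 ratio −0.87) and Cd3g (−0.25) in cluster 9, and Cd3d (−0.46) and Lat (−0.09) in cluster 5. The step removed unequal shares of the libraries, 18.6% of chow and 42.2% of ketogenic cDC2-like cells and 24.1% and 46.8% of cDC1-like cells. With 10% of UMIs subtracted as free RNA, 19 of the 25 calls remained, and Cd3g (−0.47) and Lck (−1.33) of cluster 3 turned direction.

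Lcp2 and Fyn came near or above the library level in some of these clusters. Lcp2 stood at 128% and 147% of the library level in macrophage-like cells and at 95.7% and 102% in cluster 8, and Fyn at 127% and 88.9% in cDC2-like cells. The single member at least 1.5-fold lower was Lcp2 in cDC2-like cells, at 58.9 CPM [49.2–70.0] in the chow and 35.5 [28.8–43.2] in the ketogenic library, with a ratio of 0.602 [0.458–0.788], where 6.42% of genes passed. The background for lower was 10.7%, 5.97%, 17.5%, 3.5% and 10.1% in clusters 3, 6, 8, 9 and 12, where 0 members passed.

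The cycling-like cluster 10 held cells with and without receptor transcripts, in different proportion in the 2 libraries. It had 7 of 9 members at least 1.5-fold higher under the ketogenic diet (14.5% of all genes) and 0 lower (10.5%), with Cd3e at 39.2 CPM [29.4–51.1] and 170 [150–191]. Lcp2 (55.1 and 61.5 CPM) and Fyn (85.6 and 65.2) did not pass. Markers of other cell types moved with them in this cluster: the 9 macrophage markers summed to 438 and 208 CPM, the 9 NK markers to 543 and 1343 and the 5 B cell markers to 411 and 1083. Their part in the difference was not tested. Cells with a Trac, Trbc1 or Trbc2 UMI numbered 68 of 142 under chow and 128 of 154 under the ketogenic diet. Among these, Cd3e stood at 76.6 [56.8–101] and 207 [183–233], 2.70-fold [1.99–3.74], and Lck at 64.3 [46.4–87.0] and 170 [148–194], 2.65-fold [1.90–3.77]. Among those without, Cd3e had 4 and 2 UMIs. The cycling cells with a receptor UMI had a median of 9300 and 9683 UMIs, deeper than the lymphoid clusters, and what free RNA adds to this set was not tested.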

How the data were processed

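Droplet single-cell libraries (10x Genomics, per the labels' protocols) were made from 1 chow and 1 ketogenic sample. Each deposited matrix gives raw UMI counts, whole numbers by gene and cell, without normalization. The submitters' processing notes name Cell Ranger, Seurat and mm10, with no version or settings. The cluster numbers (resolution 0.5) come from the authors' deposited table. The 142 cells outside it entered no comparison.

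UMIs of each gene were summed over the cells of a cluster and library and divided by the summed total (CPM). The log2 ratio, ketogenic over chow, was taken with 0.5 added to each count. A pair of gene and cluster with at least 50 UMIs over both libraries was counted as higher or lower from 1.5-fold, with the share of all such genes as background. Between clusters, 2-fold in each library was required. A cluster name needed raised markers (2-fold over other cells, CPM plus 20), some of them among its 10 leading genes. No doublet caller was run, and cells with transcripts of other classes were left out as an alternative. Thinned shares are exact hypergeometric expectations rounded to whole cells. Of each pathway list the 2 highest and 2 lowest ratios in a cluster were named, and for likeness the 3 highest coefficients. A few genes these rules name are not reported here. The members and lists were chosen with earlier results of these data known. Calculations used Python 3.11.15, numpy 2.4.6, scipy 1.17.1 and pandas 2.3.3, and were checked on simulated counts. Positions are from GENCODE M21 and promoter windows from RefSeq.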

Additional observations from a re-analysis of the deposited data

Results flagged for a closer look

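CD3 transcripts were also present in the cells that the deposited clustering left out, which entered no comparison. In the 87 such chow cells, Cd3e, Cd3d and Cd3g summed to 450 CPM (100 UMIs, 95% interval 366 to 547), against 13.5 CPM for a count of 3. In the 55 such ketogenic cells they summed to 1190 CPM (209 UMIs, 1034 to 1363), against 17.1 CPM for a count of 3. Both were drawn to attention because the signal lies outside the clusters used above. Over clustered cells the same sum was 286 and 820 CPM. Lck stood at 85.5 and 199 CPM in the cells without a cluster, higher in the ketogenic library as among clustered cells.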

How the results depend on the processing

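Counting error is the only error that 1 library per diet allows, and the number of mice behind each is not known. No paired analysis was possible because each diet has 1 library and the replicate numbers follow accession order. The number of pairs of member and cluster at least 1.5-fold higher was 39 of 95. It ranged from 28 to 40 of 95 under the 7 alternatives that kept these pairs, and was 50 of 112 with at least 20 UMIs and 30 of 84 with at least 100 UMIs over both libraries. The number lower was 1, and became 4 with 10% of UMIs subtracted as free RNA, 4 with mixed cells left out, 3 with at least 20 UMIs over both libraries and 0 with a 2-fold limit. The log2 ratio of the summed chains at equal composition, 0.30, became 0.21 with the subtraction, 0.24 without mixed cells and 1.51 without weights. The Cd247 share in NK-like cells of the ketogenic library, 30.8%, became 39.2% with the subtraction. Sign changes are listed only for pairs that were past 1.5-fold. Signs reversed after the subtraction for Cd3e in cluster 1 (−0.11) and, in cluster 3, for Cd3g (−0.47) and Lck (−1.33). They reversed without mixed cells for Cd3e (−0.87) and Cd3g (−0.25) in cluster 9 and for Cd3d (−0.46) and Lat (−0.09) in cluster 5. The cause was not tested. Of the 8 calls in lymphoid clusters, 5 remained after the subtraction and 6 to 8 under the other 5 alternatives run on single pairs. After the subtraction, 2 pairs in lymphoid clusters were at least 1.5-fold lower.

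The share of cells with a CD3 UMI depended on thinning. Without it, the chow and ketogenic shares were 24.4% and 28.5% in ILC2-like, 16.6% and 25.1% in NK-like, 98.3% and 100% in T-like and 19.2% and 36.6% in cDC1-like cells. At 1500 UMIs they were 17% and 18.2%, 12.6% and 15.3%, and 94.9% and 97.6% in the first 3 of these. Without mixed cells the ketogenic cDC1-like share was 4.23%.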
